A study of Homo sapiens with 8 samples.

Results

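The genes of cyclic AMP (cAMP) signalling were followed after knockdown of CD39 in MOLM-14, a human cell line established from acute myeloid leukaemia. They were chosen by name from the platform annotation: adenylyl cyclases (ADCY), phosphodiesterases (PDE) and A-kinase anchoring proteins (AKAP) with a number, all genes starting with PRKAC, PRKAR, CRTC or RAPGEF, and CREB1, CREBBP, CREM and GNAS, without antisense genes and pseudogenes. The rule reads gene names and no measured value, but the pathway was picked with earlier results of these data known. It gave 45 genes of 14884 with a named probe set: 10 cyclases and GNAS, 7 phosphodiesterases, 15 anchors, 6 RAPGEF genes and 6 transcription factors and coactivators. No gene of the catalytic or regulatory subunits of protein kinase A (PKA), the kinase that the anchors hold, was among the named probe sets, so the kinase itself was not analysed here.

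All cells received doxycycline for 72 h, the usual inducer of short hairpin RNA (sh) vectors of this kind. The hairpin targeted ENTPD1, which encodes CD39, in the shCD39 group (4 arrays) and was a scrambled sequence in the shCTRL group (4 arrays). Per the labels' protocols the RNA came from clones of transduced cells and was hybridised to Affymetrix arrays. The labels call the 4 arrays of a group technical replicates, so p-values measure the spread between these arrays, which may be technical. How many clones or cultures they stand for is not stated.

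cAMP is made from ATP by adenylyl cyclases at the cell membrane, most of which are switched on by the G protein subunit encoded by GNAS, and is broken down by phosphodiesterases. It acts through PKA, which AKAPs tether to membranes and organelles, and through a few exchange factors of the RAPGEF family that load the GTPase RAP1. In the nucleus PKA phosphorylates CREB1, which recruits CREBBP and the CRTC coactivators to genes that carry a cAMP response element. CD39 touches this pathway from outside the cell: it removes phosphates from extracellular ATP and ADP, and the adenosine finally formed acts on receptors that raise or lower cAMP.

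The cAMP response element, read as TGACGTCA, reads the same on both strands, and its half-site is TGACG. Both were searched on both strands in RefSeq promoter windows (GRCh38.p14), which run from 250 bases before to 50 bases after an annotated start; the half-site search also counts every full element. A window was given for 37 of the 45 genes. The full element lay in at least 1 window of 2 of them (5.41%), CREM and PDE7B, against 3% of the 10749 genes of the table with a window. The half-site lay in 16 (43.2%), against 35%. These matches describe the letters only. The elements of CREM (chr10:35195826-35195885, plus strand, the element starting 50 bases before 1 of its annotated starts) and PDE7B (chr6:135851520-135851579, plus strand, starting 155 bases before) are shown with those of DUSP1 (chr5:172771287-172771346, minus strand) and SST (chr3:187670408-187670467, minus strand), a pair of known CREB targets that were also measured. Capitals mark the element.
CREM: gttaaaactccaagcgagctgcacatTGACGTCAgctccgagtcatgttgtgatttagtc
PDE7B: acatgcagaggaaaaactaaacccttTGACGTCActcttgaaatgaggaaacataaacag
DUSP1: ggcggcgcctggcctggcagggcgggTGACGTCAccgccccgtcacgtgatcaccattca
SST: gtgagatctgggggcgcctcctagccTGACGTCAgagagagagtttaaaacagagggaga

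In the 4 genes whose array groups did not overlap (below), a half-site was present in a window of RAPGEF2 (chr4:159229270-159229326, plus strand), AKAP7 (chr6:131135340-131135396, plus strand) and ADCY3 (chr2:24919803-24919835, minus strand), and no half-site was found in the window of CREB1. They are shown because these genes were picked by their separate groups in these data, with the half-site in capitals. Separate groups occurred in 8.89% of the 45 genes, against 7.85% of all genes. RAPGEF2, AKAP7 and ADCY3 each also had a window without a half-site. That of ADCY3 lay 248 bases before the annotated start, at the edge of the window.
RAPGEF2: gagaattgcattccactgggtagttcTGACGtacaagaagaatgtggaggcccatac
AKAP7: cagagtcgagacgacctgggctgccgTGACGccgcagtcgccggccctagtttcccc
ADCY3: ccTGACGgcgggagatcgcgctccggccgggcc

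The deposited values are log2 expression per probe set after RMA, a procedure that subtracts background, gives all arrays a shared distribution and combines the probes of a set. Array medians ran from 3.13 to 3.17 and correlations between arrays, over all 53617 probe sets, from 0.974 to 0.987. ENTPD1 checks the labels: it had a log2 difference of -0.79 (SE 0.25) between shCD39 and shCTRL, short of the threshold (limma adjusted p = 0.178), and the groups overlapped. Its mean over all arrays, 2.95, was below the median of the table, where a log2 difference can understate a change. The shCD39 array 4 was closer to the shCTRL arrays than to its own group. Its mean correlation was 0.979 with the other shCD39 arrays and 0.984 with the shCTRL arrays. The other shCD39 arrays had much the same own-group values, from 0.979 to 0.981. They correlated better with their own group than with shCTRL, though array 2 only narrowly (0.9807 against 0.9802). Results are therefore also given without it. Of 12 myeloid and leukaemia markers 7 were measured and 6 read above the median of the table, 3.15. Their mean ran from 6.77 to 7.15 in shCD39 and from 6.54 to 6.79 in shCTRL, with CSF1R at a log2 difference of 1.36 (limma adjusted p = 0.0849) and LYZ at 1.07 (limma adjusted p = 0.0926), both with separate groups. The other 5 pointed either way: MPO had -0.40, FLT3 -0.29 and MEIS1 -0.28, against 0.13 for SPI1 and 0.09 for CD14. The part of these differences in the values below was not tested. Of markers of other cells, CD2 (1 of 4 for T cells), PAX5 (1 of 4 for B cells), KLF1 (1 of 4 for erythroid cells) and EPCAM, KRT8 and KRT18 (3 of 5 for epithelium and fibroblasts) were measured, with means over all arrays of 3.12, 6.69, 3.65, 2.42, 4.99 and 7.33.

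Differences between the hairpins were small in the 45 measured genes. These do not cover the whole cAMP machinery: the PKA subunits, PDE1 to PDE6, PDE10 and RAPGEF4 are missing. None of the 45 genes passed the threshold of an adjusted p of 0.05 by limma, over all genes tested, where 0.0941% of all genes did (14 genes, 0.0470% higher and 0.0470% lower). That even split of 7 and 7 became 5 higher and 0 lower with quantile normalization and 7 and 3 with cyclic loess, but tipped to lower with array weights (37 higher, 87 lower) and without shCD39 array 4 (111 higher, 312 lower). With so few genes passing over the whole table, a count of 0 in 45 does not set these genes apart. The unadjusted p was under 0.05 for 3 of the 45 genes (6.67%), against 14.7% of all genes. RAPGEF2 was the 1 with a higher mean in shCD39, against 6.54% of all genes, and AKAP7 and CREB1 the 2 with a lower mean, against 8.13%. The groups of 4 arrays did not overlap in 4 genes (8.89%), against 7.85% of all genes. These were RAPGEF2 and ADCY3 above (3.61% of all genes) and AKAP7 and CREB1 below (4.23%). The log2 differences ran from -0.38 to 0.44, or at most 1.35-fold, with 23 positive and 22 negative. Their median was 0.023, against 0.0093 over all genes, and their median size without sign 0.096, against 0.129. Without shCD39 array 4 again 0 of the 45 genes passed, while 2.84% of all genes did; 7 genes then had an unadjusted p under 0.05 (18.9% of all genes) and 9 had groups that did not overlap (17.0% of all genes).

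The 95% intervals below reflect the spread between these arrays, which may be technical. They do not bound a difference between independent clones or cultures. The 95% interval of the fit lay within a 2-fold change in either direction for all 45 genes, and within 1.5-fold for 42 of them (93.3%, against 77.9% of all genes). The exceptions were AKAP7, RAPGEF2 and ADCY6. The bounds farthest from 0 were -0.61 (AKAP7) and 0.68 (RAPGEF2). The SD within groups had a median of 0.159 over the 45 genes and of 0.189 over all genes, and ran from 0.057 in GNAS to 0.382 in ADCY6. No filter on low values was applied; 32 of the 45 genes read above the median of the table, and for the 13 below it a log2 difference may understate a change, since background makes up more of the signal there.

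**Figure D1:**
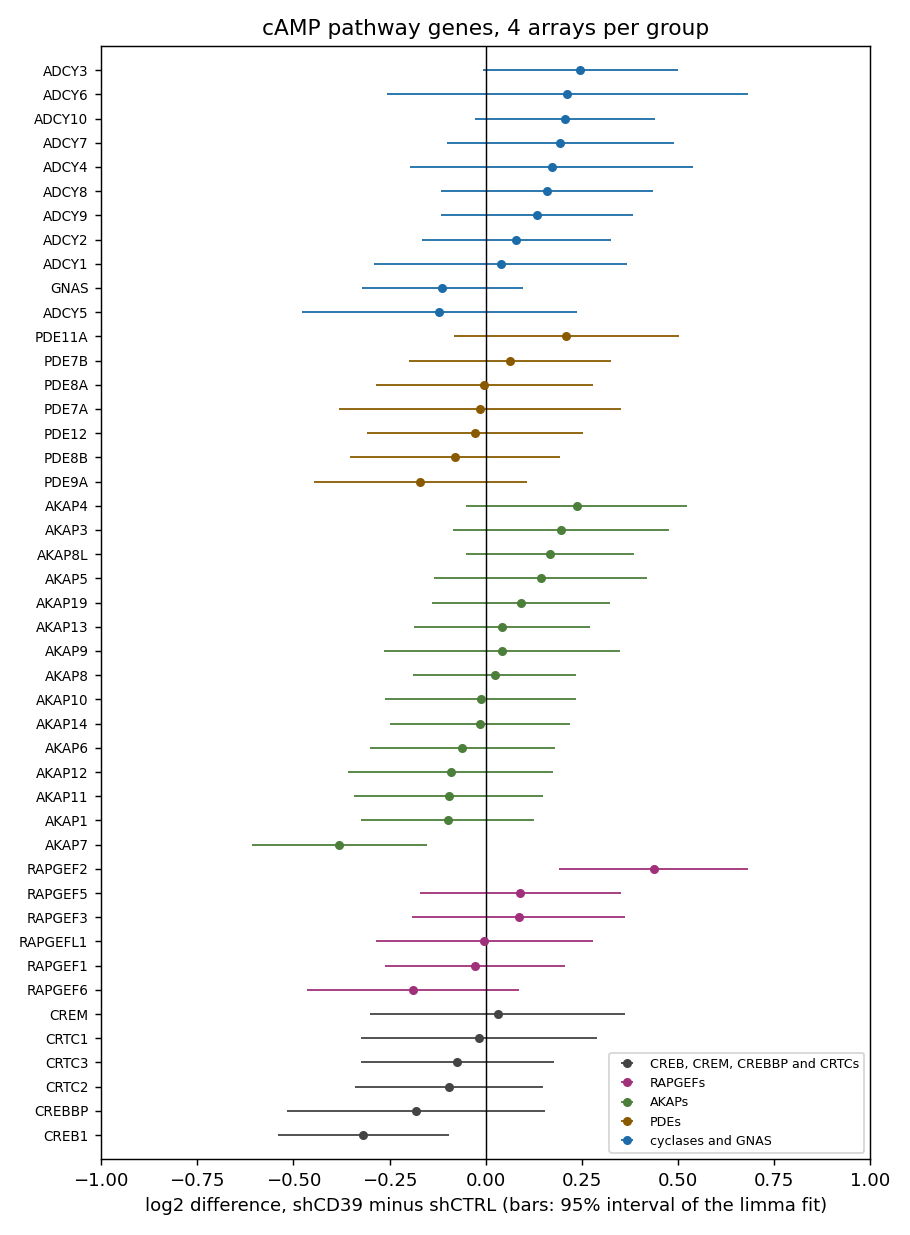
Log2 difference between shCD39 and shCTRL (x axis) for each of the 45 genes (y axis), coloured by role, with the 95% interval of the limma fit (4 arrays per group). The intervals of RAPGEF2, AKAP7 and CREB1 leave out 0, and all 45 lie between -1 and 1.

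**Figure D2:**
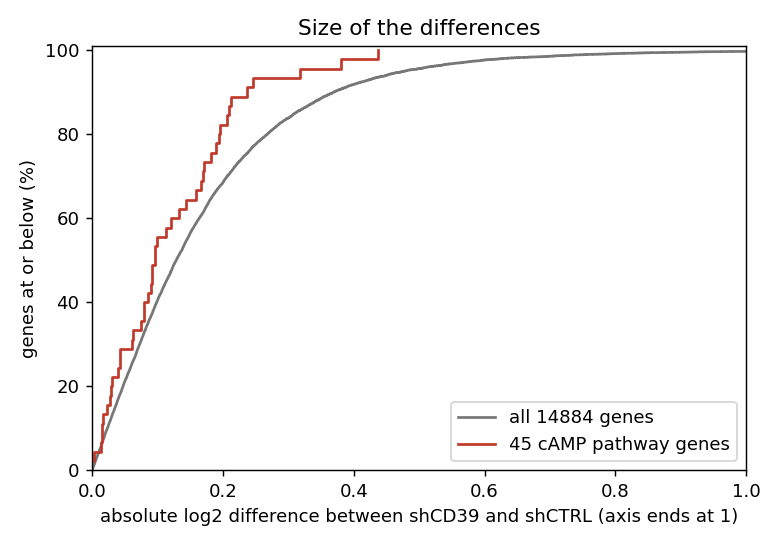
Share of genes (y axis, %) whose log2 difference between the groups, without sign, is at or below the value on the x axis, for all 14884 genes (grey) and the 45 cAMP pathway genes (red). The median is 0.129 for all genes and 0.096 for the cAMP pathway genes.

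Among the cyclases and GNAS, 9 of 11 genes had higher means in shCD39 (81.8%, against 52.0% of all genes). The median log2 difference of the 11 was 0.16, and 0 passed the threshold. ADCY2, ADCY8 and ADCY10, all positive, read below the median of the table. Without dim genes, 6 of 8 were positive. ADCY3, a membrane cyclase, read 6.33, 6.34, 6.37 and 6.43 in shCD39 arrays 1 to 4 and 6.24, 6.11, 5.85 and 6.29 in the shCTRL arrays. Every shCD39 array was thus above every shCTRL array, though the gap between the nearest of them was small. The log2 difference was 0.25 (SE 0.12, limma adjusted p = 0.356; exact permutation p = 0.0286, the smallest that 4 against 4 arrays can give). Every gene with separate groups has this permutation p, as 7.85% of all genes did. Here and for AKAP7, RAPGEF2 and CREB1 below it restates the lack of overlap and is not a second test. Without shCTRL array 3, the lowest, it was 0.16.

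ADCY7, a cyclase typical of blood cells, read 6.48, 5.94, 6.37 and 6.07 in shCD39 and from 5.87 to 6.13 in shCTRL. Its shCD39 arrays 1 and 3 were above all shCTRL arrays and the others lay among them, with a difference of 0.19 (SE 0.14). ADCY10, the soluble cyclase stimulated by bicarbonate, had 0.21 (SE 0.11), with 3 shCD39 arrays above all shCTRL arrays, at a dim signal of 2.08 ± 0.12 against 1.87 ± 0.10 (mean ± SD, n = 4 arrays each). ADCY9 had 0.13 (SE 0.11), ADCY4 0.17 (SE 0.17) and ADCY8 0.16 (SE 0.13). ADCY2 stood at 0.08 and ADCY1, stimulated by calcium and calmodulin, at 0.04.

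ADCY6, a cyclase that calcium inhibits, was measured by 2 probe sets. The brighter one, used for the gene, varied from 2.92 to 4.02 within shCTRL and gave 0.21 (SE 0.21), which became 0.037 without shCTRL array 1 and 0.41 without shCTRL array 2. The other read 3.63, 3.47, 3.57 and 3.67 in shCD39 and 3.26, 3.34, 3.43 and 3.16 in shCTRL. There the groups did not overlap, with a difference of 0.29 (SE 0.10, adjusted p = 0.322 over all probe sets by limma). ADCY5, its close relative, was lower in shCD39 arrays 1 to 3 (2.84, 2.96 and 3.10) than in any shCTRL array (3.15 to 3.35), but read 3.67 in shCD39 array 4, above them all. Its difference was -0.12 (SE 0.16), and -0.30 (SE 0.11, adjusted p = 0.188) without that array.

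GNAS, the stimulatory G protein subunit, read 5.01, 4.87, 4.88 and 4.90 in shCD39 and 5.01, 4.98, 5.02 and 5.10 in shCTRL. It was lower in 3 of 4 shCD39 arrays than in every shCTRL array and had the smallest within-group SD of the 45 genes, but the difference was only -0.11 (SE 0.10, limma adjusted p = 0.647; exact permutation p = 0.0571).

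**Figure D3:**
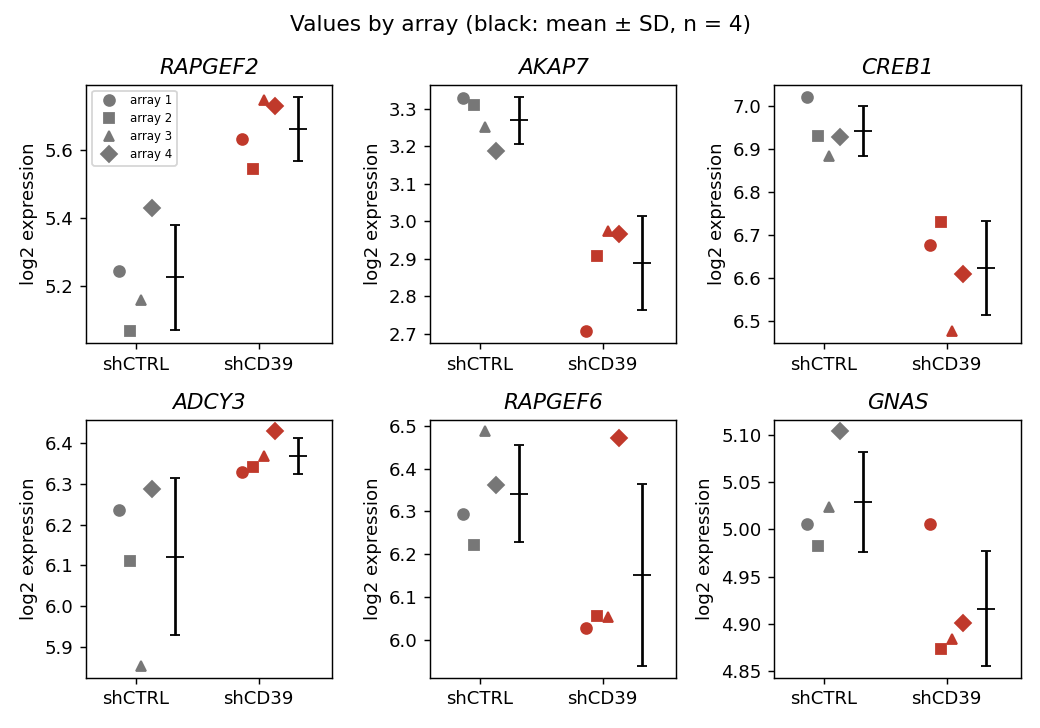
Log2 expression (y axis, its range set per gene) by array in shCTRL (grey) and shCD39 (red) for 6 genes. Marker shapes give the array number of the labels, which do not state a pairing across groups. Black bars give the mean ± SD of 4 arrays. RAPGEF2, AKAP7, CREB1 and ADCY3 have groups that do not overlap; in RAPGEF6 shCD39 array 4 lies among the shCTRL arrays at 6.47, and in GNAS shCD39 array 1 does at 5.01.

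The PDE genes, which include PDE9A and PDE12 that do not act on cAMP (below), showed differences between -0.17 and 0.21. Of the 7, 2 were positive, and the median was -0.015. None of them passed the threshold or had an unadjusted p under 0.05, which 14.7% of all genes had. PDE7A, which is specific for cAMP and found in lymphoid and myeloid cells, read 7.08, 7.60, 7.04 and 7.68 in shCD39 and 7.35, 7.19, 7.66 and 7.26 in shCTRL. Its shCD39 arrays split into a high pair (2 and 4) and a low pair (1 and 3), and the difference between the groups was -0.015 (SE 0.17). PDE8A, another cAMP-specific enzyme, split the same way less widely, at 5.06, 5.17, 4.90 and 5.50 against 5.14 to 5.19 in shCTRL, with a difference of -0.0035 (SE 0.13).

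PDE11A, which cleaves both cAMP and cGMP, had 0.21 (SE 0.13), and PDE9A, specific for cGMP, -0.17 (SE 0.13). PDE7B stood at 0.06, PDE8B at -0.08 and PDE12, a mitochondrial enzyme that trims RNA and shares only the name, at -0.03. The signs of this group are not firm: with quantile normalization or cyclic loess, and without shCD39 array 3 or shCTRL array 3, 5 of 7 were positive. PDE11A and PDE7B, the 2 positive ones, read below the median of the table. Without dim genes, 0 of the 4 left were positive. The families PDE1 to PDE6 and PDE10, which hold PDE4, a main cAMP phosphodiesterase family of leukocytes, were not among the named probe sets and were not analysed here.

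The anchors of PKA were balanced, with 8 of 15 differences positive and 7 negative (median 0.02). An unadjusted p under 0.05 by limma was found for 1 of them (6.67%, against 14.7% of all genes). AKAP7, whose short forms hold PKA at the cell membrane, read 2.71, 2.91, 2.97 and 2.97 in shCD39 and 3.33, 3.31, 3.25 and 3.19 in shCTRL. All shCD39 arrays, array 4 included, were below all shCTRL arrays. The difference was -0.38 (SE 0.10, limma adjusted p = 0.137; exact permutation p = 0.0286), or -0.41 without shCD39 array 4. The signal was close to the median of the table, where a log2 difference can understate a change.

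AKAP8L and AKAP8, neighbours in sequence that bind chromatin and RNA in the nucleus, gave 0.17 (SE 0.10) and 0.02 (SE 0.10). AKAP8L read 8.50, 8.46, 8.37 and 8.31 in shCD39 and 8.28, 8.23, 8.31 and 8.15 in shCTRL, so that 3 of its 4 shCD39 arrays were above all shCTRL arrays and array 4 was just inside their range. Anchors known from sperm, AKAP4 (0.24, SE 0.13), AKAP3 (0.20, SE 0.13) and AKAP14 (-0.01), all read below the median of the table.

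AKAP1, which tethers PKA to the outer mitochondrial membrane, had -0.10 (SE 0.10) and AKAP11 -0.10 (SE 0.11). AKAP9, the large anchor of centrosome and Golgi, stood at 0.04, AKAP10 at -0.01, AKAP12 (gravin) at -0.09 and AKAP6, an anchor of muscle cells, at -0.06. AKAP5, known from synapses, had 0.14 (SE 0.13) and AKAP19 0.09. AKAP13, which also activates the GTPase RhoA, had 3 probe sets that differed: the brightest, used for the gene, gave 0.04 (SE 0.10). The dimmest of them read 2.71 to 2.81 in shCD39 and 2.89 to 3.22 in shCTRL, with no overlap and a difference of -0.27 (SE 0.10, limma adjusted p = 0.355 over all probe sets).

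Among the exchange factors for RAP GTPases, RAPGEF2 differed most, and its difference was the largest of the 45 genes. RAPGEF2 activates RAP1 and RAP2 at the membrane. It read 5.63, 5.54, 5.75 and 5.73 in shCD39 and 5.24, 5.07, 5.16 and 5.43 in shCTRL. The groups were separate, and shCD39 array 4 was as high as the rest of its group. The mean was 5.66 ± 0.09 against 5.22 ± 0.15, a 1.35-fold difference (log2 0.44, SE 0.11, limma adjusted p = 0.119; exact permutation p = 0.0286). Leaving out single arrays gave values between 0.38 and 0.51.

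RAPGEF6, the closest relative of RAPGEF2, read 6.03, 6.06, 6.05 and 6.47 in shCD39 and 6.29, 6.22, 6.49 and 6.36 in shCTRL. The first 3 shCD39 arrays were below all shCTRL arrays and array 4 was among them. The difference was -0.19 (SE 0.13, limma adjusted p = 0.539) with all arrays and -0.30 (SE 0.11, adjusted p = 0.172) without array 4. RAPGEF3 (EPAC1), a member that cAMP itself switches on, had 0.09 (SE 0.13) at a signal of 3.32 ± 0.15 against 3.23 ± 0.20 (n = 4 arrays each). RAPGEF4 was not among the named probe sets and was not analysed here. RAPGEF1, which acts below tyrosine kinases, stood at -0.03, RAPGEF5 at 0.09 and RAPGEFL1 at -0.0033.

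In the nucleus, CREB1, the transcription factor that PKA phosphorylates, had the lowest p of its group of 6 genes. It read 6.68, 6.73, 6.48 and 6.61 in shCD39 and 7.02, 6.93, 6.88 and 6.93 in shCTRL. Every shCD39 array lay below every shCTRL array. The difference was -0.32 (SE 0.10, limma adjusted p = 0.182; exact permutation p = 0.0286), with single arrays left out between -0.35 and -0.27, and -0.24 with quantile normalization.

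CREBBP, the acetyltransferase that binds phosphorylated CREB1, had -0.18 (SE 0.15), with shCD39 arrays 2 and 4 below all shCTRL arrays. The coactivators CRTC2 (-0.10, SE 0.11), CRTC3 (-0.07, SE 0.11) and CRTC1 (-0.02, SE 0.14) and the repressor and activator CREM (0.03, SE 0.15) differed by less than their SE. Thus 5 of 6 genes of this group had lower means in shCD39 (median -0.09), or 4 of 6 with quantile normalization or cyclic loess. Higher means were found for 16.7% of the group and 52.0% of all genes. An unadjusted p under 0.05 by limma was found for 1 gene (16.7%, against 14.7% of all genes).

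**Figure D4:**
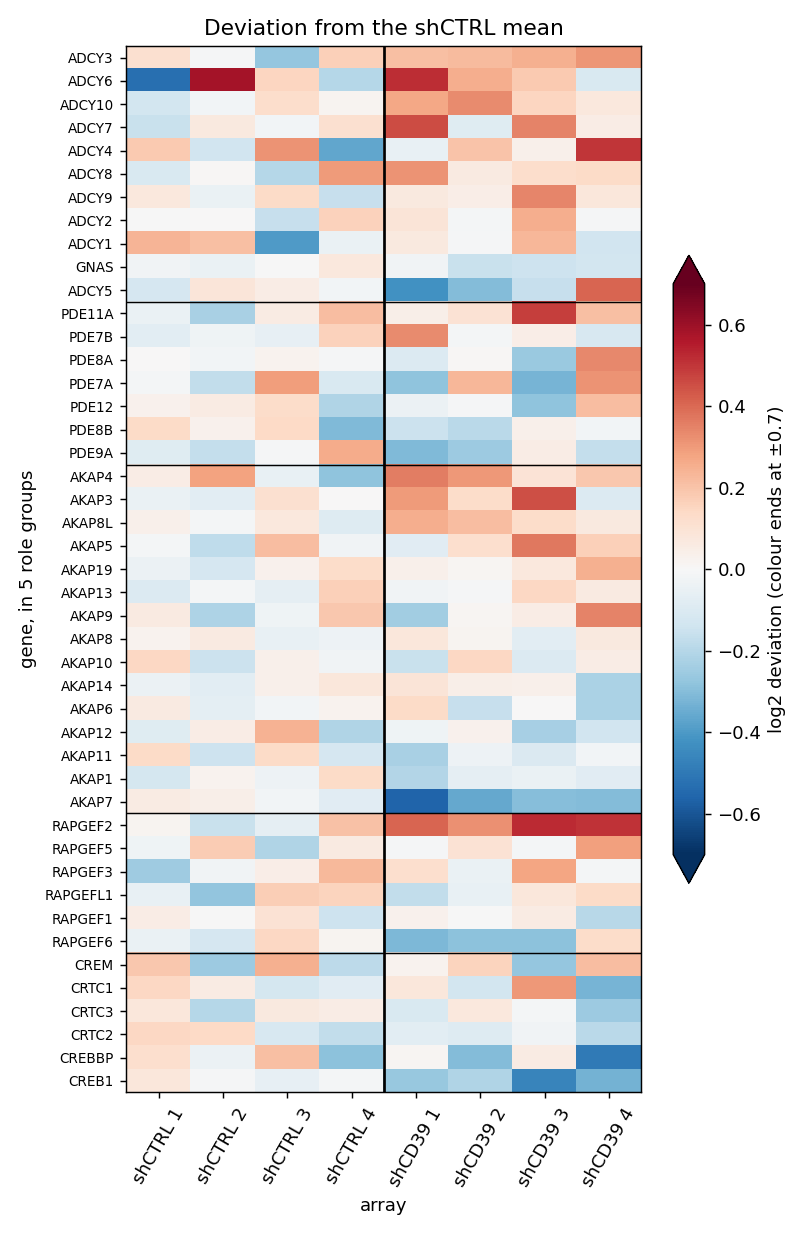
Deviation of each array (x axis) from the shCTRL mean (log2, red higher, blue lower, colour ends at ±0.7) for the 45 genes (y axis) in 5 role groups. RAPGEF2 and ADCY3 are above the shCTRL mean and AKAP7 and CREB1 below it in all 4 shCD39 arrays, whereas rows such as ADCY5, PDE7A and RAPGEF6 change colour within shCD39.

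Per array, the median deviation of the 45 genes from the shCTRL mean was 0.014, 0.0071, 0.052 and 0.053 in shCD39 arrays 1 to 4 and between -0.020 and 0.036 in the shCTRL arrays. Between 16 and 24 of the 45 genes read outside the range of the 4 shCTRL arrays in a shCD39 array. In a shCTRL array 17 to 26 genes read outside the range of the other 3, a narrower reference. For shCD39 array 4 it was 24 genes, against 23, 16 and 23 in arrays 1 to 3. This count ignores direction, so it cannot show whether array 4 departed from its group. ADCY5 counts as outside in array 4 as in arrays 1 to 3, though on the opposite side. Leaving out array 4 gave 9 of the 45 genes with separate groups, against 5, 4 and 5 without arrays 1, 2 and 3. An unadjusted p under 0.05 by limma was then found for 7 genes, against 3 without each of the others. Over all genes, separate groups were also most frequent without array 4 (2523, against 1735, 1562 and 1600).

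Genes around this machinery were measured from 4 further lists of 88 genes in all, of which 54 had a named probe set outside the 45. Their upstream list, receptors and G proteins, had 0 of 20 measured genes (of 35 listed) past the threshold. An unadjusted p under 0.05 by limma was found for 0 of them, against 14.7% of all genes. The differences were positive in 13 (65%, against 52.0% of all genes), with a median of 0.048. The largest differences belonged to PTGER4, a prostaglandin receptor that raises cAMP (0.41, SE 0.30), and HRH2, a histamine receptor that does the same (-0.26, SE 0.14). PTGER4 read 6.14, 4.47, 5.90 and 4.99 in shCD39 and 4.72 to 5.15 in shCTRL, so that shCD39 arrays 1 and 3 were high and array 2 was the lowest of all 8. Leaving out single arrays moved it between 0.16 (without shCD39 array 1) and 0.72 (without shCD39 array 2). The adenosine receptors that couple to cyclases, named here after their values were seen, gave 0.09 (SE 0.12) for ADORA2A, 0.06 (SE 0.12) for ADORA2B and -0.03 (SE 0.19) for ADORA1.

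Of the list of PKA inhibitors and other effectors, 9 of 20 genes were measured and 0 passed, with a median of 0.015 and 2 genes at an unadjusted p under 0.05 (22.2%, against 14.7% of all genes). HCN4, a channel gated by cAMP, read 5.99, 6.03, 6.03 and 5.90 in shCD39 and 5.62, 5.65, 5.71 and 5.69 in shCTRL, with no overlap (0.32, SE 0.09, limma adjusted p = 0.158). POPDC1, a membrane protein that binds cAMP, read 7.65, 7.06, 7.70 and 6.94 against 8.01, 7.93, 8.18 and 7.68. Only shCD39 array 3 lay above the lowest shCTRL array (-0.61, SE 0.18, limma adjusted p = 0.164; exact permutation p = 0.0571).

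Of 13 genes of the CREB and ATF family and EP300, 11 were measured and 0 passed (median 0.038), with 2 at an unadjusted p under 0.05 (18.2%, against 14.7% of all genes). CREBL2, a small relative of CREB1, read 6.78, 6.66, 6.45 and 6.81 in shCD39 and 5.99, 6.21, 6.24 and 6.37 in shCTRL (0.47, SE 0.12, limma adjusted p = 0.122). Its groups did not overlap, in the direction opposite to CREB1. CREBRF, a regulator of CREB3 proteins, read 4.29, 4.72, 4.06 and 4.58 against 3.94, 4.00, 4.11 and 4.03 and overlapped by shCD39 array 3 (0.39, SE 0.14, limma adjusted p = 0.235).

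Immediate targets of cAMP and CREB had 14 of 20 genes measured, with a median of 0.031 and 8 positive; 1 passed, against 0.0941% of all genes, and 4 had an unadjusted p under 0.05 (28.6%, against 14.7%). ATF3, a stress-induced repressor of the same factor family, fell by 0.75 on the log2 scale (SE 0.11, limma adjusted p = 0.0388), from 3.92, 4.21, 4.12 and 4.07 in shCTRL to 3.35, 3.27, 3.23 and 3.47 in shCD39. The shCD39 values of ATF3 were near the median of the table, 3.15, where a log2 difference can understate a change. The arrays of each group lay close together and far from the other group. This call did not hold without any 1 of shCD39 arrays 1 to 3 or shCTRL arrays 1 to 3, nor with quantile normalization or the array number as a block, where the adjusted p reached at most 0.142 and the difference stayed between -0.80 and -0.71.

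FOS, a classical early CREB target, pointed the other way. It read 5.91, 5.63, 5.95 and 5.40 in shCD39 and 5.25, 5.29, 5.16 and 4.96 in shCTRL (0.56, SE 0.14, limma adjusted p = 0.115), with no overlap. Without shCD39 array 4, its lowest, the difference was 0.66 and passed (limma adjusted p = 0.0255). With the mean of its probe sets in place of the brightest it was 0.29. Its relative FOSB had 0.40 (SE 0.18, limma adjusted p = 0.317; 0.25 with the mean of its probe sets) with overlapping groups, and TH, tyrosine hydroxylase of catecholamine synthesis, 0.37 (SE 0.11, limma adjusted p = 0.168) without overlap. DUSP1 and SST, whose elements are printed above, had 0.11 (SE 0.13) and -0.09 (SE 0.11). The other early targets stood between -0.18 (PER1) and 0.18 (BDNF), with EGR1 at 0.14, SIK1 at -0.11 and JUNB at -0.06. No test compared the lists with other genes.

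**Figure D5:**
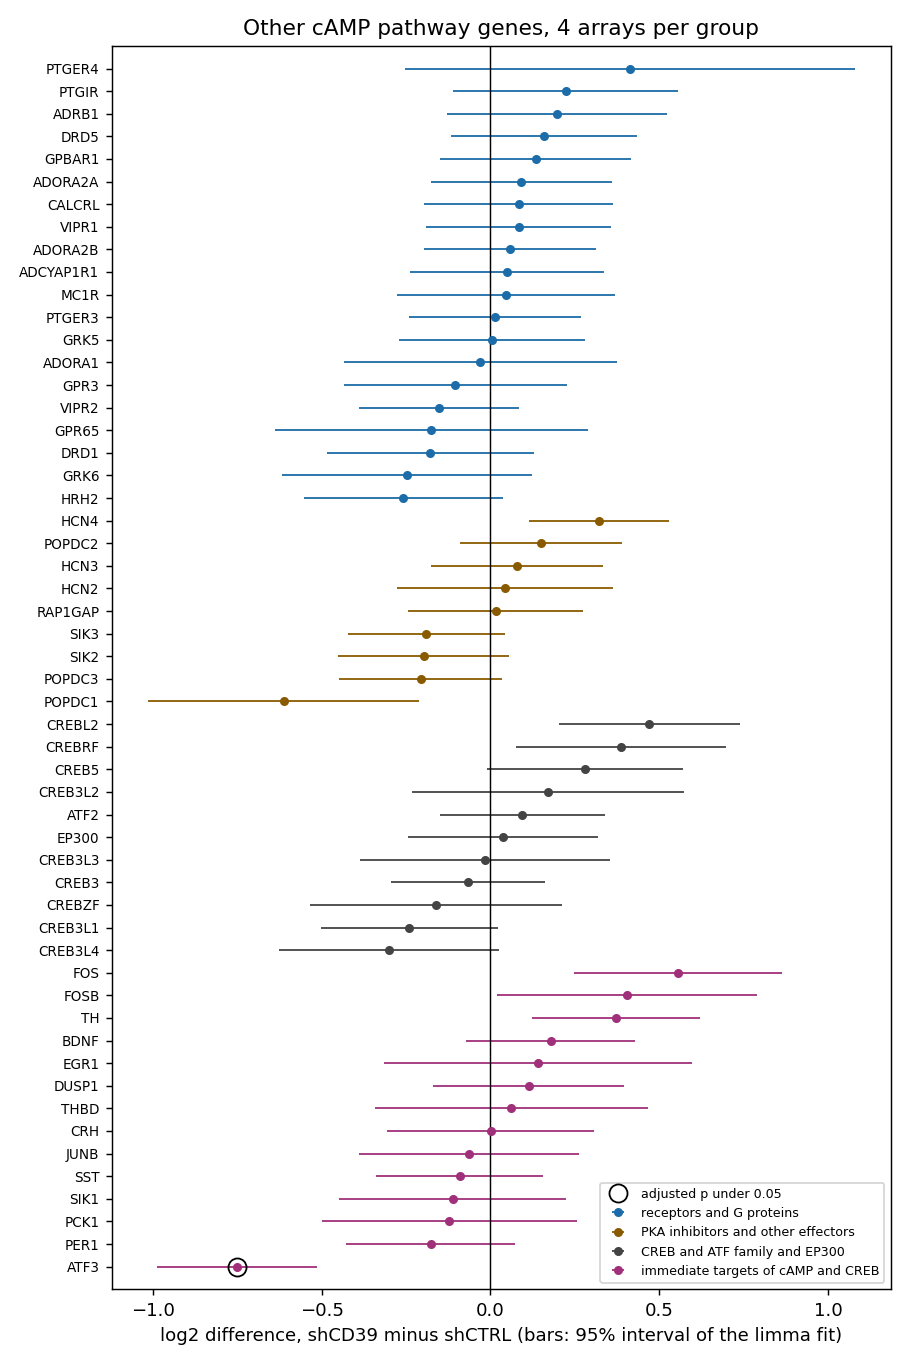
Log2 difference between shCD39 and shCTRL (x axis) with the 95% interval of the limma fit for 54 further genes of the cAMP pathway (y axis), coloured by list, 4 arrays per group. The ring marks ATF3, at -0.75, which passed the adjusted threshold of 0.05; FOS stands at 0.56.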

How the data were processed

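The deposited values are log2 expression per probe set, made by the authors with RMA in the oligo package, per the submitters' processing notes. For versions, array model and genome build: not given in the sources used here. Since RMA equalises arrays, a difference is relative to the bulk of probe sets. All 16098 named probe sets had 1 symbol, updated by Entrez ID against RefSeq GRCh38.p14; 37519 of 53617 are unnamed. For a gene with several probe sets the one with the largest average over the 8 arrays was used. The 14884 genes were fitted with limma 3.58.1 (lmFit, eBayes) in R 4.3.3, 2-sided, with Benjamini-Hochberg adjustment over all genes and a threshold of 0.05. Single values also had a 2-sided exact permutation test. The procedure was tested on simulated data.

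Members, lists and tests were chosen with earlier results of these data known. Named genes are ENTPD1, members with an unadjusted p under 0.05, separate groups or the 2 largest differences of a role group, and per further list up to 6 genes with such a p, otherwise the 2 largest differences. All other members are given by their values. The adenosine receptors and the early targets without such a p were added after their values were seen. Alternatives were quantile, median and cyclic loess normalization, leaving out dim genes, the mean of probe sets, a trend with robust prior, array weights, a replicate block and leaving out each array. A fit without arrays 4 of both groups was chosen after seeing the data. Figures used matplotlib 3.10.9 in Python 3.11.15.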

Additional observations from a re-analysis of the deposited data

Results flagged for a closer look

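In 112 groups of 4 arrays (the 45 genes, ENTPD1 and 10 genes of the further lists, in each hairpin) 3 held an array far from the other 3 by Dixon's test at its 95% critical value, where chance gives about 1 in 20. RAPGEF6 read 6.47 in shCD39 array 4, against 6.03 to 6.06 in the others. ADCY9 read 6.78 in shCD39 array 3, against 6.48 to 6.52. CRTC3 read 5.21 in shCTRL array 2, against 5.46 to 5.49.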

How the results depend on the processing

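None of the 45 genes passed the threshold by limma under any of the 16 other settings or without both arrays numbered 4; their lowest adjusted p ranged from 0.0714 to 0.287. The count over all genes, 14 as deposited, was 5 with quantile normalization (5 higher), 24 without dim genes, 22 with a trend and robust prior, 124 with array weights and 368 without both arrays numbered 4; leaving out single arrays gave 0 (shCTRL array 1; 1574 at an unadjusted p under 0.05) to 423 (shCD39 array 4). The median of the 45 genes was 0.054 with quantile normalization, -0.014 over the 32 left without dim genes and -0.0033 with the mean of probe sets, and -0.0098 to 0.0332 without single arrays. Members with separate groups numbered 4 to 9 without single arrays (10.0% to 17.0% of all genes) and 12 (26.7%) without both arrays numbered 4, where 23.9% of all genes had separate groups. The further lists had 0 calls with quantile normalization, 0 to 2 without single arrays and 2 without both arrays numbered 4. The labels do not state whether arrays of the same number belong together. Deviations of same-numbered arrays correlated between -0.037 and 0.062, which does not settle it. With the replicate block 6 genes were called over all, 0 of the 45 and 0 in the further lists. Arrays give no depth; 4 per group limit the precision, and signals near background limit the 13 dim members.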
